A study of Capra hircus with 72 samples.

Results

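The genes described here make, load and recapture the inhibitory transmitters GABA and glycine, or form the receptor that glycine opens. The set was defined by gene symbol in a deposited table of 21343 genes, and 8 of its 9 symbols had a row. They were GAD1 (ENSCHIG00000017798, chromosome 2), GAD2 (ENSCHIG00000021003, chromosome 13), SLC32A1 (ENSCHIG00000010731, chromosome 13), SLC6A5 (ENSCHIG00000012442, chromosome 29), GLRA1 (ENSCHIG00000017210, chromosome 7), GLRA2 (ENSCHIG00000020268, on an unplaced scaffold), GLRA3 (ENSCHIG00000011485, chromosome 8) and GLRB (ENSCHIG00000024833, chromosome 17). The glial glycine transporter SLC6A9 had no row under its symbol and was not analysed here, and 6643 genes of the table carried no symbol.

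GABA is made from glutamate by glutamic acid decarboxylase, which exists as a form found throughout the neuron (GAD1) and a form enriched at the terminal (GAD2). The vesicular transporter SLC32A1 loads GABA and glycine alike, so a neuron's vesicles carry whichever of them its cytosol holds. SLC6A5, the neuronal glycine transporter GlyT2, keeps the cytosolic glycine of a terminal high and is the usual marker of glycinergic neurons. The glycine receptor is a chloride channel built from alpha subunits (GLRA1, GLRA2, GLRA3) and the beta subunit GLRB, which binds the scaffold protein gephyrin at synapses. In mammals GLRA1 is the main adult alpha subunit of the spinal cord and brainstem, and GLRA2 is prominent in the developing brain. Glycinergic neurons sit mainly in the hindbrain and spinal cord, where they take part in shaping the breathing rhythm, whereas inhibition in the cortex is mainly GABAergic.

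Total RNA came from female goats (Capra hircus) kept for 14 days under 1 of 3 conditions, with 6 animals per condition according to the series text. The conditions were moderate chronic hypercapnia (inspired CO2 of 6% for 7 days and of 8% for the following 7 days), mild chronic hypercapnia (6% for all 14 days) and room air. Each animal group contributed 6 libraries from each of 3 medullary regions, the retrotrapezoid nucleus (RTN), the nucleus tractus solitarii (NTS) and the ventral respiratory column (VRC), and from the medial prefrontal cortex (mPFC), which gave 12 groups and 72 libraries. The labels do not say that a replicate number marks 1 animal across regions, nor give ages, so p-values measure the spread between libraries.

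Library totals lay between 12.84 M and 31.88 M counts. Cortical and medullary labels were checked against lists of marker genes, summed in RPKM (read counts scaled for gene length and library size, meant to be comparable between genes). The lists were not a check of which medullary region a library came from. In room air the forebrain identity list averaged 1.12 RPKM in the RTN, 5.77 in the NTS, 4.13 in the VRC and 155 in the mPFC. Hindbrain identity genes averaged 31.7, 379, 121 and 0.235 RPKM in the same order. Motor neuron markers varied between libraries of 1 region: in room air their sum ran between 489 and 738 RPKM in the RTN, between 19.1 and 774 in the NTS, and between 8.51 and 147 in the VRC. Among the NTS libraries, room air replicate 1 and mild hypercapnia replicate 2 held the least motor neuron signal relative to their groups. Several results that rest on the first are given with and without it. The ratios between genes and the GAD2 differences of NTS from VRC and RTN are given only with it. In samples of whole tissue, a lower level can mean fewer cells of a type or less RNA per cell, and these cannot be told apart.

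The inhibitory genes separated the regions far more than the conditions. SLC6A5 and GLRA1 were brainstem genes with hardly a read in the mPFC, GAD1 and GAD2 overlapped between NTS and cortex and were lower in the RTN and VRC, GLRA2 was highest in the NTS, and GLRB was highest in the mPFC. Differences between regions were tested on the counts of the 24 room air libraries with edgeR's quasi-likelihood F-test over 15700 genes, and a gene is called when its Benjamini-Hochberg adjusted p is under 0.05. All 8 members were called in RTN against mPFC, 4 higher and 4 lower, where 54.8% of all genes were called (27.9% higher, 26.9% lower). In VRC against mPFC the count was again 8, with 4 in each direction, against 60.3% of all genes (29.4% higher, 30.9% lower). NTS against mPFC called 6, 5 of them higher, against 48.3% of genes (23.7% higher, 24.5% lower). Each of these counts includes GLRA1, which passed the filter on low counts only through the medullary libraries and is read from its counts below.

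Within the medulla, NTS against VRC called 5 members, 4 higher and 1 lower, while 33% of all genes were called (17.6% higher, 15.4% lower). RTN against NTS called 4, of which 1 was higher and 3 were lower, against 21.6% of genes (11.2% higher, 10.4% lower). RTN against VRC called 3, all higher, against 14.7% of genes (9.1% higher, 5.57% lower). The median log2 fold change of the members was -0.06 in RTN, 0.69 in NTS and -0.26 in VRC, each against mPFC, and the medians over all genes were 0.02, 0.02 and -0.01. It was 0.33 in NTS against VRC, 0.41 in RTN against VRC and -0.36 in RTN against NTS, beside 0.01, 0.00 and 0.01 over all genes.

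**Figure D1:**
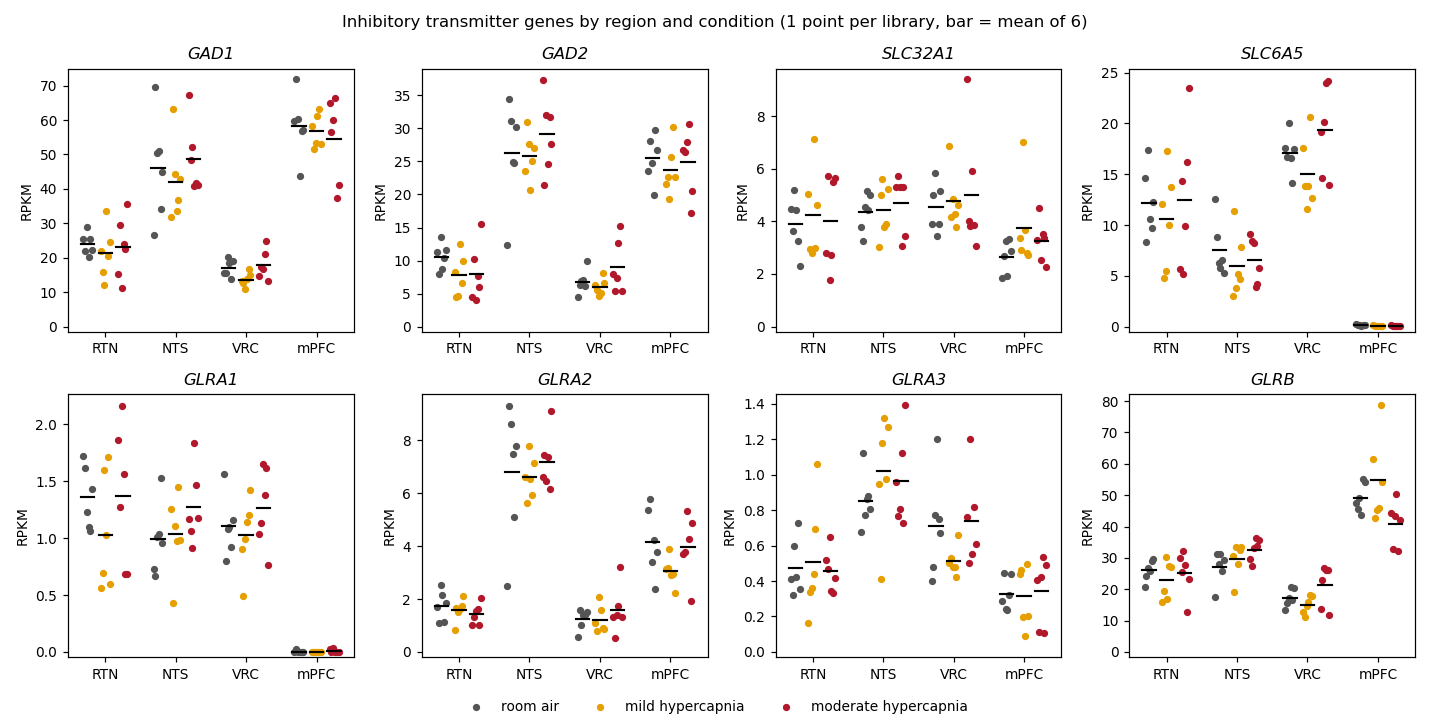
RPKM of the 8 genes (linear axis, 1 panel per gene) in the RTN, NTS, VRC and mPFC, in the order room air, mild and moderate hypercapnia; points are libraries and bars are means of 6. SLC6A5 and GLRA1 lie near 0 in every mPFC library, the GAD1 and GAD2 points of NTS and mPFC overlap, and within each region the points of the 3 conditions overlap for every gene.

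GAD1 was the most abundant member in the NTS and the mPFC. In room air its lowest, median and highest levels were 20.3, 23.9 and 29 RPKM in the RTN, 26.6, 47.6 and 69.7 in the NTS, 13.7, 17.0 and 20.2 in the VRC, and 43.8, 58.4 and 71.9 in the mPFC. The ranges of RTN and VRC did not overlap, and those of NTS and mPFC did. By means the order was mPFC (58.3 ± 9.01 RPKM), NTS (46.1 ± 15.0), RTN (24.1 ± 3.14) and VRC (17.1 ± 2.52; SD, n = 6 here and for each mean below). The edgeR test gave log2 fold changes of -1.15 ± 0.16 (SE) for RTN against mPFC (2.21-fold lower, adjusted p = 2e-06) and -1.66 ± 0.17 for VRC against mPFC (3.17-fold lower, adjusted p = 5.8e-09). NTS and mPFC, neighbours in the order, were not separated in the main fit, which took no libraries as pairs (-0.36 ± 0.16, adjusted p = 0.068). An edgeR fit that took same-numbered libraries as pairs called the difference (adjusted p = 0.041). Without NTS room air replicate 1, the library with the lowest GAD1 of its group, the difference was -0.23 (adjusted p = 0.19), and without NTS room air replicate 2 or mPFC room air replicate 4 it was called, at -0.51 (adjusted p = 0.0071) and -0.44 (adjusted p = 0.029).

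Inside the medulla GAD1 was 2.47-fold higher in NTS than in VRC (1.30 ± 0.16 on the log2 scale, adjusted p = 3.3e-06) and 1.73-fold lower in RTN than in NTS (-0.79 ± 0.16, adjusted p = 0.001). RTN exceeded VRC by 0.52 ± 0.16 (adjusted p = 0.033). That last call rested on single libraries: leaving out RTN room air replicate 1, 3 or 5, or VRC room air replicate 1, 2 or 5, raised the adjusted p to between 0.053 and 0.078. Under mild hypercapnia GAD1 averaged 21.5 ± 7.40 RPKM in the RTN, 42.1 ± 11.4 in the NTS, 13.6 ± 1.96 in the VRC and 56.7 ± 4.79 in the mPFC. Under moderate hypercapnia the means were 23.0 ± 8.85, 48.6 ± 10.3, 18 ± 4.35 and 54.4 ± 12.2 RPKM in the same order of regions. The order of the regions was the same in all 3 conditions.

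GAD2, the terminal form of the enzyme, ran below GAD1 in every group. Room air libraries had 7.96, 10.8 and 13.5 RPKM in the RTN (lowest, median and highest), 12.3, 27.5 and 34.4 in the NTS, 4.47, 6.56 and 9.97 in the VRC, and 19.9, 25.7 and 29.8 in the mPFC. NTS and mPFC overlapped, RTN and VRC overlapped, and every mPFC library lay above every RTN library. The means were 26.3 ± 7.79 RPKM in NTS, 25.5 ± 3.52 in mPFC, 10.6 ± 2.00 in RTN and 6.79 ± 1.81 in VRC. Against mPFC, GAD2 was 2.2-fold lower in RTN (-1.14 ± 0.19, adjusted p = 1.4e-05) and 3.49-fold lower in VRC (-1.80 ± 0.19, adjusted p = 1.5e-08), while NTS differed from mPFC by 0.02 ± 0.18 (adjusted p = 0.93). NTS exceeded VRC by 3.55-fold (1.83 ± 0.19, adjusted p = 4.2e-07), RTN was 2.24-fold lower than NTS (-1.16 ± 0.19, adjusted p = 7.5e-05), and RTN was 1.58-fold higher than VRC (0.66 ± 0.19, adjusted p = 0.018).

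The GAD2 means under mild hypercapnia were 7.77 ± 3.15 RPKM in the RTN, 25.8 ± 3.59 in the NTS, 6.01 ± 1.23 in the VRC and 23.7 ± 3.81 in the mPFC. Under moderate hypercapnia they were 8.00 ± 4.34, 29.1 ± 5.73, 9.01 ± 4.05 and 24.9 ± 5.05 RPKM in that order, so that VRC stood above RTN there, with overlapping ranges. GAD1 over GAD2, a ratio of levels per length, averaged 2.31 ± 0.281 in RTN, 1.79 ± 0.332 in NTS, 2.61 ± 0.548 in VRC and 2.29 ± 0.257 in mPFC in room air.

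SLC32A1, the vesicular transporter, had the closest room air means of the 8 genes across the 3 medullary regions. In room air its lowest, median and highest values were 2.31, 4.04 and 5.19 RPKM in the RTN, 3.24, 4.49 and 5.14 in the NTS, 3.44, 4.47 and 5.86 in the VRC, and 1.86, 2.77 and 3.34 in the mPFC. Every VRC library lay above every mPFC library, and all neighbours in the order VRC (4.55 ± 0.930), NTS (4.36 ± 0.724), RTN (3.89 ± 1.03) and mPFC (2.66 ± 0.644) overlapped. The gene was 1.6-fold higher in RTN (0.68 ± 0.19, adjusted p = 0.0045), 1.62-fold higher in NTS (0.70 ± 0.19, adjusted p = 0.0043) and 1.84-fold higher in VRC (0.88 ± 0.19, adjusted p = 0.00037), each against mPFC. The comparisons inside the medulla gave -0.18 ± 0.19 for NTS against VRC, -0.21 ± 0.19 for RTN against VRC and -0.02 ± 0.19 for RTN against NTS (adjusted p of 0.48, 0.51 and 0.95). With the mild hypercapnia libraries in place of room air, the 3 differences from mPFC were 0.30 in RTN (adjusted p = 0.33), 0.25 in NTS (adjusted p = 0.44) and 0.45 in VRC (adjusted p = 0.12), and the calls were lost. The mild mPFC group held 1 library at 7.03 RPKM (replicate 3), with the other 5 between 2.71 and 3.66. With the moderate hypercapnia libraries the differences were 0.49 in RTN (adjusted p = 0.17) and 0.58 in NTS (adjusted p = 0.12), and VRC was called again (0.83, adjusted p = 0.021).

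Mean SLC32A1 levels under mild hypercapnia were 4.25 ± 1.70 RPKM in the RTN, 4.43 ± 1.01 in the NTS, 4.77 ± 1.09 in the VRC and 3.75 ± 1.65 in the mPFC. Under moderate hypercapnia they were 4.03 ± 1.79, 4.68 ± 1.13, 5.02 ± 2.36 and 3.25 ± 0.786 RPKM. The synthesis gene GAD1 and the vesicular transporter did not keep 1 proportion: in room air GAD1 over SLC32A1 averaged 6.56 ± 1.86 in RTN, 11.0 ± 5.34 in NTS, 3.85 ± 0.802 in VRC and 22.9 ± 5.76 in mPFC. The VRC ratios (3.08 to 5.37) lay below all mPFC ratios (17.0 to 32.2).

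SLC6A5 gave the widest contrast between regions of the genes with counts in every group. Its lowest, median and highest levels in room air were 8.36, 11.4 and 17.4 RPKM in the RTN, 5.23, 6.42 and 12.6 in the NTS, 14.1, 17.1 and 20 in the VRC, and 0.0241, 0.119 and 0.295 in the mPFC, where libraries held between 3 and 34 counts. Each medullary library exceeded each cortical library, and the neighbours VRC and RTN, and RTN and NTS, overlapped. The gene was 99.4-fold higher in RTN (6.64 ± 0.33 on the log2 scale, adjusted p = 3.4e-14), 56.1-fold higher in NTS (5.81 ± 0.32, adjusted p = 3.4e-13) and 138-fold higher in VRC (7.11 ± 0.33, adjusted p = 9.9e-15) than in mPFC.

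In both medullary comparisons with the NTS, SLC6A5 ran opposite to the GAD genes. NTS was 2.46-fold lower than VRC (-1.30 ± 0.24, adjusted p = 2e-04), and RTN was 1.77-fold higher than NTS (0.83 ± 0.24, adjusted p = 0.013). NTS room air replicate 1 held the highest SLC6A5 of its group (12.6 RPKM), and without it the 2 differences were -1.54 (adjusted p = 6.6e-06) and 1.03 (adjusted p = 0.00095). RTN and VRC were not separated by edgeR (-0.47 ± 0.23, 95% confidence interval -0.95 to 0.01, adjusted p = 0.19), whereas limma's voom with sample quality weights called the difference (-0.52, adjusted p = 0.019). Under mild hypercapnia SLC6A5 averaged 10.6 ± 4.83 RPKM in the RTN, 5.98 ± 3.13 in the NTS, 15.0 ± 3.39 in the VRC and 0.0792 ± 0.0372 in the mPFC. Under moderate hypercapnia the means were 12.5 ± 7.03, 6.6 ± 2.28, 19.3 ± 4.43 and 0.0745 ± 0.0288 RPKM. In room air they were 12.2 ± 3.35, 7.54 ± 2.77, 17.1 ± 1.90 and 0.134 ± 0.0882 RPKM, so the order VRC, RTN, NTS and mPFC held in all conditions.

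The ratio of SLC6A5 to GAD1 levels set the regions apart. In room air it averaged 0.502 ± 0.0963 in RTN (0.381 to 0.601), 0.191 ± 0.141 in NTS (0.113 to 0.473), 1.01 ± 0.0913 in VRC (0.895 to 1.13) and 0.00224 ± 0.00146 in mPFC (0.000551 to 0.00493). The VRC range stood clear of the RTN range, the RTN and NTS ranges overlapped through NTS room air replicate 1, and the mPFC range lay below all others. Under mild hypercapnia the ratio averaged 0.476 ± 0.0961 in RTN, 0.138 ± 0.0420 in NTS and 1.10 ± 0.168 in VRC. Moderate hypercapnia gave 0.519 ± 0.143, 0.134 ± 0.0307 and 1.08 ± 0.163. Within each region the ranges of the conditions overlapped.

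**Figure D2:**
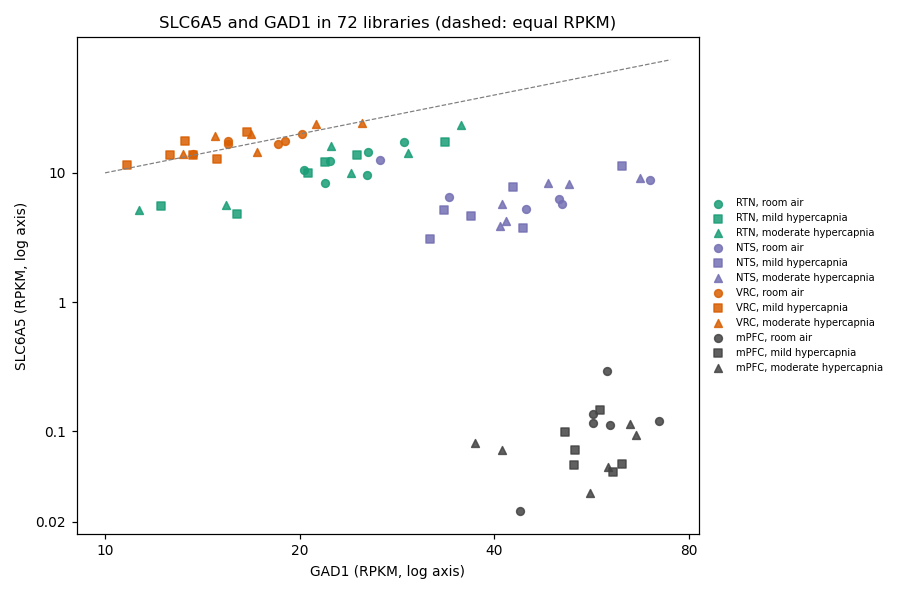
SLC6A5 against GAD1 (RPKM, both axes logarithmic) in 72 libraries, coloured by region and shaped by condition; the dashed line marks equal RPKM. VRC libraries lie along the line (mean ratio 1.01 in room air), RTN and NTS libraries lie below it (0.502 and 0.191), and mPFC libraries form a separate cloud near the bottom (0.00224).

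GLRA1, the adult alpha subunit of the hindbrain receptor, was a low gene with a sharp boundary. In room air its lowest, median and highest levels were 1.06, 1.33 and 1.72 RPKM in the RTN, 0.664, 0.982 and 1.53 in the NTS, and 0.799, 1.09 and 1.56 in the VRC. These 3 ranges overlapped, and the medullary comparisons were 0.32 ± 0.24 for RTN against VRC (adjusted p = 0.41), -0.27 ± 0.25 for NTS against VRC (adjusted p = 0.42) and 0.59 ± 0.24 for RTN against NTS (adjusted p = 0.086). The last was called by voom (adjusted p = 0.0066), and by edgeR once NTS room air replicate 5 was left out (0.78, adjusted p = 0.024). In the mPFC 15 of 18 libraries had 0 counts and none had more than 1.

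The excess over mPFC was therefore read from counts summed over a group and scaled to the library totals. In room air the ratio to mPFC, which held 1 count, was 304 in RTN (95% exact counting interval 54.2 to 12043), 225 in NTS (40.1 to 8927) and 246 in VRC (43.8 to 9762). Under mild hypercapnia, with 0 counts in mPFC and a floor of 3 counts over the group, GLRA1 was at least 90.0-fold higher in RTN, 87.7-fold in NTS and 90.8-fold in VRC. Under moderate hypercapnia, with 2 counts in mPFC, the ratios were 165 (45.4 to 1367), 148 (40.5 to 1226) and 145 (39.9 to 1206). Intervals and floors cover counting error only. The 3 room air differences from mPFC were also called by edgeR. GLRA1 passed the filter on low counts there only through the medullary libraries, so these calls add no support to the counts.

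GLRA1 means were 1.36 ± 0.276 RPKM in the RTN, 0.989 ± 0.307 in the NTS and 1.10 ± 0.262 in the VRC in room air. Under mild hypercapnia they were 1.03 ± 0.511, 1.04 ± 0.346 and 1.03 ± 0.317 RPKM. Under moderate hypercapnia they were 1.37 ± 0.608, 1.27 ± 0.331 and 1.26 ± 0.350 RPKM, with overlapping ranges throughout.

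GLRA2 had its highest level in the NTS and its next highest in the cortex. Room air values (lowest, median, highest) were 1.08, 1.79 and 2.53 RPKM in the RTN, 2.50, 7.63 and 9.32 in the NTS, 0.584, 1.4 and 1.58 in the VRC, and 2.38, 4.00 and 5.77 in the mPFC. NTS room air replicate 1 was the 2.50 RPKM library, and it alone of its group fell inside the RTN range. NTS was 4.98-fold higher than VRC (2.31 ± 0.28, adjusted p = 2.7e-06), and RTN was 3.51-fold lower than NTS (-1.81 ± 0.28, adjusted p = 4.5e-05). Without that library the differences were 2.46 (adjusted p = 6e-08) and -2.0 (adjusted p = 1.8e-06).

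Relative to mPFC, GLRA2 was 2.17-fold lower in RTN (-1.12 ± 0.28, adjusted p = 0.0013) and 3.08-fold lower in VRC (-1.62 ± 0.28, adjusted p = 2.5e-05). NTS against mPFC gave 0.69 ± 0.27 (1.62-fold higher, adjusted p = 0.036), or 0.87 without NTS room air replicate 1 (adjusted p = 0.0038). The call was lost when mPFC room air replicate 3, 4, 5 or 6 or NTS room air replicate 2, 3, 4 or 6 was left out (adjusted p between 0.056 and 0.089). RTN and VRC differed by 0.50 ± 0.28 (adjusted p = 0.24). Mean levels were 1.75 ± 0.568 RPKM in RTN, 6.80 ± 2.55 in NTS, 1.25 ± 0.376 in VRC and 4.16 ± 1.26 in mPFC in room air. Mild hypercapnia gave 1.58 ± 0.424, 6.61 ± 0.779, 1.22 ± 0.512 and 3.05 ± 0.543 RPKM, and moderate hypercapnia 1.43 ± 0.400, 7.19 ± 1.07, 1.59 ± 0.893 and 3.98 ± 1.19 RPKM.

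GLRA3 was the scarcest alpha subunit of the medulla, with 3 to 67 counts per library over all regions. Its room air values were 0.320, 0.416 and 0.725 RPKM in the RTN, 0.675, 0.834 and 1.12 in the NTS, 0.402, 0.710 and 1.20 in the VRC, and 0.238, 0.303 and 0.445 in the mPFC (lowest, median, highest). All neighbours in the order overlapped, and the NTS range lay above the mPFC range. The gene was 2.56-fold higher in NTS (1.36 ± 0.27, adjusted p = 0.00022) and 2.33-fold higher in VRC (1.22 ± 0.27, adjusted p = 0.00049) than in mPFC. RTN against mPFC sat at the threshold (0.66 ± 0.28, adjusted p = 0.046) and was lost under all 7 alternatives (adjusted p between 0.052 and 0.17).

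The medullary differences of GLRA3 were 0.14 ± 0.26 for NTS against VRC (adjusted p = 0.71), -0.56 ± 0.26 for RTN against VRC (adjusted p = 0.17) and -0.70 ± 0.26 for RTN against NTS (adjusted p = 0.059). The last was called by voom (adjusted p = 0.015) and DESeq2 (adjusted p = 0.042), and by edgeR without NTS room air replicate 1 (-0.77, adjusted p = 0.036), RTN room air replicate 5 (-0.87, adjusted p = 0.025), VRC room air replicate 1 (adjusted p = 0.048) or VRC room air replicate 4 (adjusted p = 0.045). Mean levels in room air were 0.472 ± 0.157 RPKM in RTN, 0.853 ± 0.151 in NTS, 0.713 ± 0.282 in VRC and 0.329 ± 0.0922 in mPFC. They were 0.509 ± 0.322, 1.02 ± 0.333, 0.511 ± 0.0795 and 0.314 ± 0.172 RPKM under mild, and 0.454 ± 0.119, 0.963 ± 0.257, 0.740 ± 0.256 and 0.345 ± 0.189 RPKM under moderate hypercapnia.

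GLRB, the subunit that ties the receptor to the synapse, was far more abundant than any alpha subunit and was highest in the cortex. Its lowest, median and highest room air levels were 20.8, 26.2 and 29.5 RPKM in the RTN, 17.4, 28.7 and 31.3 in the NTS, 13.5, 16.9 and 20.7 in the VRC, and 43.7, 48.3 and 55.2 in the mPFC. Every mPFC library lay above every medullary one, every RTN library lay above every VRC one, and RTN and NTS overlapped. Against mPFC the gene was 1.73-fold lower in RTN (-0.79 ± 0.12, adjusted p = 5.5e-06), 1.83-fold lower in NTS (-0.87 ± 0.12, adjusted p = 2e-06) and 2.63-fold lower in VRC (-1.4 ± 0.12, adjusted p = 6.9e-10). It was 1.44-fold higher in NTS than in VRC (0.52 ± 0.12, adjusted p = 0.0017) and 1.52-fold higher in RTN than in VRC (0.61 ± 0.12, adjusted p = 0.0013), and RTN against NTS gave 0.08 ± 0.12 (adjusted p = 0.68).

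Room air means of GLRB were 26 ± 3.21 RPKM in RTN, 27.2 ± 5.19 in NTS, 17.4 ± 2.78 in VRC and 49.2 ± 4.63 in mPFC. Mild hypercapnia gave 22.9 ± 6.18, 29.5 ± 5.56, 15.1 ± 2.81 and 54.8 ± 13.7 RPKM, and moderate hypercapnia 25.2 ± 6.83, 32.7 ± 3.47, 21.2 ± 6.70 and 40.8 ± 7.07 RPKM. Among the moderate hypercapnia libraries NTS and mPFC were not separated (-0.27, adjusted p = 0.30).

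The make-up of the alpha subunits followed from these levels. As shares of summed GLRA1, GLRA2 and GLRA3 RPKM in room air, GLRA1 took 38.6 ± 9.53% in RTN, 12.7 ± 5.65% in NTS, 36.8 ± 12.5% in VRC and 0.062 ± 0.152% in mPFC. GLRA2 took 47.9 ± 9.65%, 76.7 ± 8.52%, 40.4 ± 11.0% and 92.2 ± 2.75%, and GLRA3 took 13.5 ± 5.71%, 10.7 ± 3.55%, 22.7 ± 6.43% and 7.75 ± 2.77%. Thus GLRA2 supplied most alpha subunit RNA in NTS and mPFC libraries, while RTN and VRC libraries held GLRA1 and GLRA2 in similar shares. In room air the lowest GLRA1 share was 28.1% in RTN and 28.0% in VRC, above the highest share in NTS (20.4%). Under mild hypercapnia the RTN range (15.7 to 46.0%) overlapped the NTS range (6.66 to 17.3%), and the VRC range (from 27.2%) did not. Under moderate hypercapnia the lowest shares were 21.8% in RTN and 28.2% in VRC, above the highest in NTS (17.8%). GLRB in room air exceeded the summed alpha subunits by 7.42 ± 1.60 times in RTN, 3.30 ± 0.637 in NTS, 5.65 ± 0.330 in VRC and 12 ± 4.76 in mPFC.

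**Figure D3:**
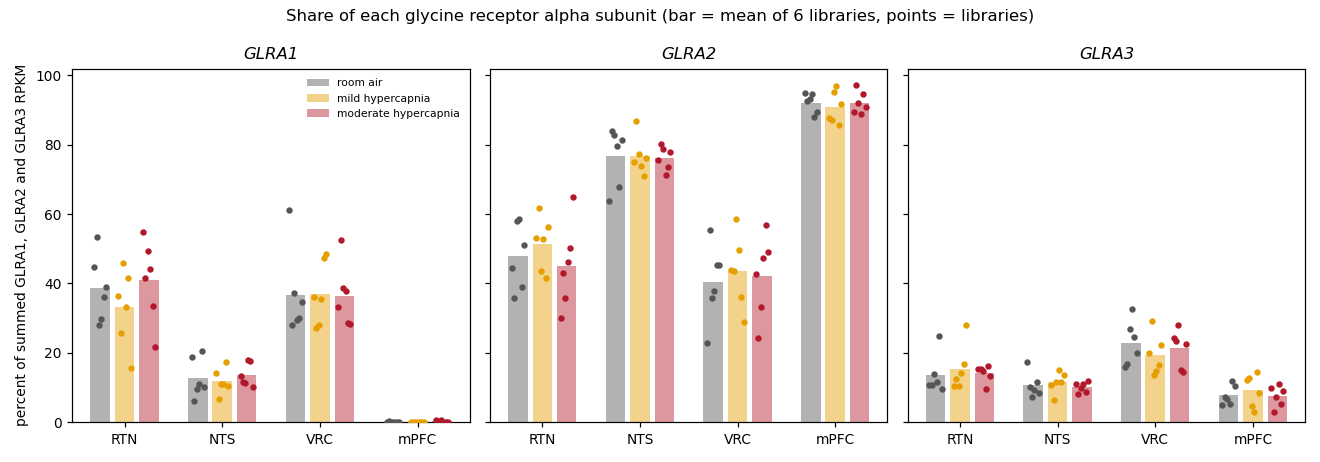
Share of each glycine receptor alpha subunit in the summed RPKM of GLRA1, GLRA2 and GLRA3 (percent), by region and condition; bars are means of 6 libraries and points are libraries. GLRA1 is at 38.6% in RTN and 36.8% in VRC in room air but 12.7% in NTS and near 0 in mPFC, where GLRA2 makes up 92.2%.

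The regional pattern was examined again in the exposed animals by running the 6 region comparisons on the mild (15821 genes) and on the moderate hypercapnia libraries (15697 genes). Of the 48 combinations of member and region pair, 25 were called in all 3 conditions, 5 in 2, 5 in 1 and 13 in 0. The same split over all genes is not reported here, so these counts are not read as a trait of the members. Of all genes, the mild libraries called 52.8% in RTN, 43.3% in NTS and 59.3% in VRC, each against mPFC, and 45.6% in NTS against VRC, 11.9% in RTN against VRC and 29.7% in RTN against NTS. The moderate libraries called 49.7%, 40.1%, 52.3%, 37.6%, 6.07% and 30% in the same order. SLC6A5 stood above mPFC by 7.13 in RTN and 7.63 in VRC (log2) under mild hypercapnia, and by 7.50 in RTN, 6.45 in NTS and 8.13 in VRC under moderate hypercapnia. Of the RTN to VRC differences, GAD1 (0.68, adjusted p = 0.017) and GLRB (0.63, adjusted p = 0.027) were called again with the mild hypercapnia libraries, and GAD2 was not (0.39, adjusted p = 0.20). With the moderate hypercapnia libraries none was: GAD1 gave 0.36 (adjusted p = 0.35), GAD2 -0.16 (adjusted p = 0.79) and GLRB 0.27 (adjusted p = 0.47).

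Of 28 further genes of inhibitory transmission, covering GABA reuptake and breakdown, glycine supply and cleavage, receptor anchoring, the chloride gradient and GABA-B receptors, 25 had a row. Of these, 20 were called in RTN against mPFC (10 higher, 10 lower), 14 in NTS against mPFC (7 and 7) and 18 in VRC against mPFC (8 and 10). Of all genes 54.8%, 48.3% and 60.3% were called in these comparisons. All genes divided about evenly as well, with 27.9% higher and 26.9% lower in RTN, 23.7% and 24.5% in NTS, and 29.4% and 30.9% in VRC. The inward chloride transporter SLC12A2 averaged 22.4 ± 4.16 RPKM in RTN, 15.5 ± 6.24 in NTS, 32.0 ± 7.08 in VRC and 5.69 ± 1.82 in mPFC, and was higher than in mPFC by 2.11 ± 0.23 in RTN, 1.43 ± 0.23 in NTS and 2.60 ± 0.24 in VRC (adjusted p of 4.7e-08, 1.5e-05 and 1.5e-09). The amino acid transporter SLC7A10, which carries glycine and D-serine, was 4.00-fold higher in RTN and 4.76-fold higher in VRC than in mPFC (adjusted p of 3.5e-10 and 4.1e-11). SHMT1, which interconverts serine and glycine, was 4.74-fold higher in VRC than in mPFC (adjusted p = 9.1e-11), and the glial GABA transporter SLC6A11 was 2.60-fold higher in NTS than in mPFC (adjusted p = 1.3e-07).

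On the other side, the GABA-B subunit GABBR2 was lower than in mPFC by 2.39 ± 0.38 in RTN, 1.62 ± 0.36 in NTS and 2.59 ± 0.38 in VRC on the log2 scale (adjusted p of 8e-06, 0.00071 and 2.5e-06). The GABA transporter SLC6A13 was 5.30-fold lower in RTN and 6.36-fold lower in NTS than in mPFC (adjusted p of 1.7e-05 and 6.8e-06). The mPFC levels of GABBR2 (49.8 ± 32.8 RPKM) and SLC6A13 (15.4 ± 11.8 RPKM) varied widely between libraries. NTS against VRC called 14 (8 higher, 6 lower), with ABAT, which breaks down GABA, at 1.11 ± 0.22, GABBR2 at 0.97 ± 0.36, SLC12A2 at -1.17 ± 0.23 and SHMT1 at -1.03 ± 0.17 (adjusted p of 0.00045, 0.042, 0.00036 and 6.2e-05). Of all genes 33% were called in that comparison (17.6% higher, 15.4% lower).

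RTN against NTS called 8 pathway genes (3 higher, 5 lower), among them the betaine and GABA transporter SLC6A12 (-1.02 ± 0.27, adjusted p = 0.0084), GABBR1 (-0.86 ± 0.14, adjusted p = 6.9e-05) and ABAT (-0.81 ± 0.22, adjusted p = 0.0094). RTN against VRC called 3, all lower: SLC38A3 (-0.85 ± 0.24, adjusted p = 0.016), SHMT1 (-0.58 ± 0.17, adjusted p = 0.019) and SLC38A5 (-0.50 ± 0.17, adjusted p = 0.044). Of all genes 21.6% were called in RTN against NTS (11.2% higher, 10.4% lower) and 14.7% in RTN against VRC (9.1% higher, 5.57% lower). Gephyrin (GPHN), the anchor of GLRB, averaged 6.84 ± 0.796 RPKM in RTN, 7.83 ± 0.771 in NTS, 6.90 ± 0.722 in VRC and 10.5 ± 1.05 in mPFC. Like GLRB it was lower than in mPFC in each medullary region, by 0.49 ± 0.09 in RTN, 0.44 ± 0.09 in NTS and 0.50 ± 0.09 in VRC on the log2 scale (adjusted p of 1e-04, 0.00041 and 6.9e-05).

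The study's own question was which genes change with mild or moderate chronic hypercapnia in each region. None of the 8 members was called in any of the 12 comparisons between conditions, by edgeR, DESeq2 or voom, on 15343 genes in RTN, 15418 in NTS, 15302 in VRC and 15403 in mPFC. Few other genes were: edgeR called 0% of genes in 11 of the comparisons and 0.00649% (1 gene) in moderate hypercapnia against room air in the NTS. At an unadjusted p under 0.05 the members numbered 4 in VRC moderate against mild hypercapnia, and 1 each in VRC mild hypercapnia against room air, NTS moderate hypercapnia against room air and mPFC moderate against mild hypercapnia. The comparisons of a region share libraries, so their values are set side by side and are not independent of each other.

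**Figure D4:**
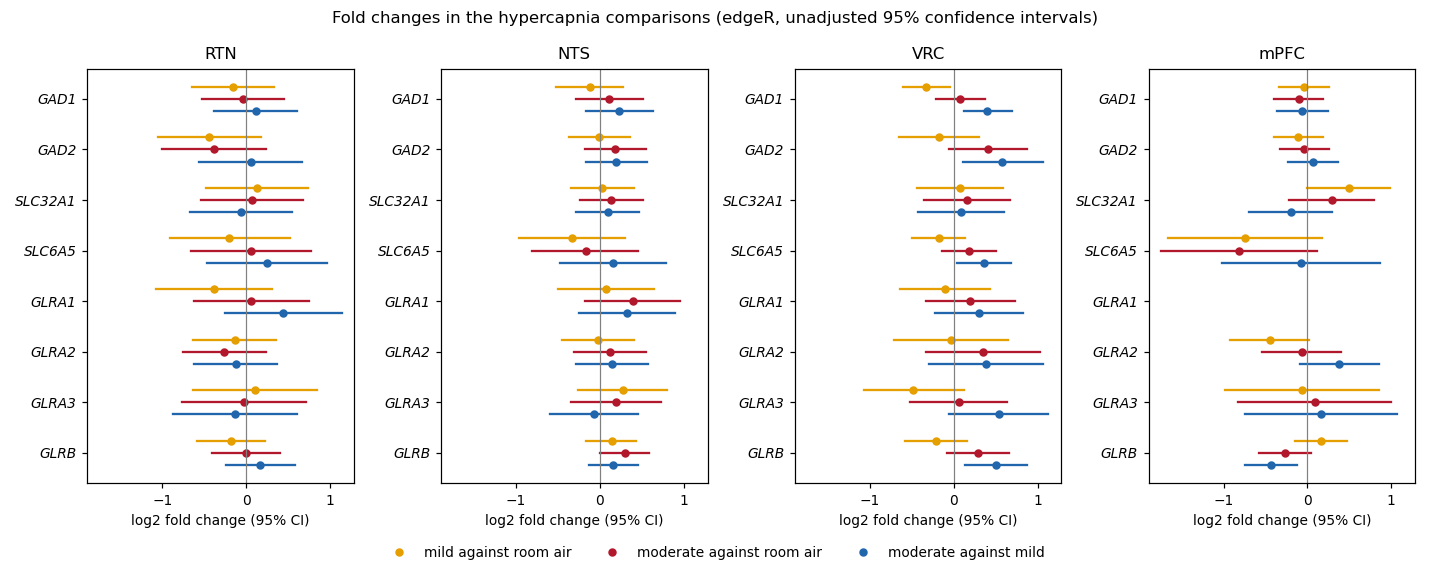
Log2 fold changes of the 8 genes (rows) in 4 regions (panels) for mild against room air, moderate against room air and moderate against mild hypercapnia, with unadjusted 95% confidence intervals from edgeR; GLRA1 was not tested in mPFC. In VRC moderate against mild, the intervals of GAD1, GAD2, SLC6A5 and GLRB lie above 0 (estimates of 0.36 to 0.58); elsewhere GAD1 in VRC mild against room air (-0.33) and GLRB in mPFC moderate against mild (-0.43) lie below it, GLRB in NTS moderate against room air touches it, and all others cross it.

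In the VRC the estimates lay mostly below room air under mild and above it under moderate hypercapnia, without any member passing the test. Mild hypercapnia against room air gave 7 of 8 members below 0, with a median log2 fold change of -0.18 against 0.01 over all genes, of which 51.2% were above 0. GAD1 had 10.8, 13.5 and 16.6 RPKM under mild hypercapnia (lowest, median, highest) and 13.7, 17.0 and 20.2 RPKM in room air, and the ranges overlapped (-0.33 ± 0.14, unadjusted 95% confidence interval -0.61 to -0.04, adjusted p = 0.76; 6.23% of genes had an unadjusted p under 0.05). SLC32A1, the member above 0 (0.07), gave -0.08 without VRC mild hypercapnia replicate 1. All 5 leukocyte markers (median 2.11; 27.4 RPKM under mild hypercapnia and 10.7 in room air) and all 7 microglia markers (median 0.42; 355 and 269 RPKM) were above 0 in that comparison, and their part in it was not tested. Moderate hypercapnia against room air gave 8 of 8 above 0 with a median of 0.19 (0.01 over all genes, 51.4% of them above 0). All 10 neuron markers (median 0.27; 5575 RPKM under moderate hypercapnia and 4649 in room air) and 3 of 3 glutamatergic markers (median 0.50; 43.6 and 33.2 RPKM) were above 0 there too, and all 8 myelin markers were below it (median -0.23; 13165 and 15196 RPKM). The 5 motor neuron markers tested (median 1.03, with 84.0 and 42.3 RPKM) and the 5 cortical interneuron markers tested (median 0.32) were all above 0 as well. None of the 8 members had an unadjusted p under 0.05, against 5.67% of genes, and the largest difference was that of GAD2 (0.41 ± 0.23, adjusted p = 0.87).

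Moderate against mild hypercapnia in the VRC placed 8 of 8 members above 0 with a median of 0.39, where the median of all genes was 0.00 and 50.5% were above 0. GAD1 had 13.2, 17.0 and 25 RPKM under moderate hypercapnia and 10.8, 13.5 and 16.6 RPKM under mild (0.40 ± 0.14, 95% confidence interval 0.12 to 0.69, adjusted p = 0.19). GAD2 had 5.37, 7.68 and 15.3 RPKM under moderate and 4.68, 5.87 and 8.07 RPKM under mild hypercapnia (0.58 ± 0.23, 0.11 to 1.06, adjusted p = 0.23). SLC6A5 had 13.9, 19.7 and 24.2 RPKM under moderate and 11.6, 13.8 and 20.6 RPKM under mild hypercapnia (0.36 ± 0.15, 0.04 to 0.68, adjusted p = 0.27). The groups overlapped for each of these genes. GLRB had 11.7, 24.5 and 26.7 RPKM under moderate and 11.1, 15.2 and 18.3 RPKM under mild hypercapnia (0.50 ± 0.18, 0.13 to 0.87, adjusted p = 0.20), again with overlap.

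Of all genes 15.5% had an unadjusted p under 0.05 in that comparison, while the number called ran from 0 with edgeR to 35 with voom and 253 with DESeq2, none of them a member. Leaving out VRC moderate hypercapnia replicate 6 brought GLRB under the threshold (0.61, adjusted p = 0.044) with 252 genes called in all. Cell marker lists leaned to 1 side in the same comparison, although edgeR called no marker. Of 10 neuron markers 9 were above 0 (median 0.32, summed means of 5575 RPKM under moderate and 4703 under mild hypercapnia), as were 3 of 3 glutamatergic markers (median 0.71, with 43.6 and 30.2 RPKM). Also above 0 were 6 of 8 astrocyte (median 0.27), 8 of 8 hindbrain identity (0.30) and 5 of 7 hindbrain inhibitory neuron markers (0.47), but 0 of 7 microglia markers (-0.54). The 5 motor neuron (0.38) and 5 cortical interneuron markers tested (0.19) were all above 0. All 8 myelin markers were below 0 (median -0.31; 13165 and 15597 RPKM), as were 5 of 5 leukocyte markers (median -2.13; 11.8 and 27.4 RPKM, with 1 mild library at 77.1). With the myelin marker level as a covariate the differences of GAD1, GAD2, SLC6A5 and GLRB were 0.37, 0.53, 0.38 and 0.25 (adjusted p of 0.63, 0.68, 0.67 and 0.75), and with the neuron marker level 0.38, 0.60, 0.33 and 0.42 (adjusted p of 0.26, 0.28, 0.34 and 0.30).

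In the NTS, moderate hypercapnia against room air placed 7 of 8 members above 0 (median 0.16, against 0.00 over all genes, of which 49.2% were above 0). GLRB had 27.4, 33.4 and 36.3 RPKM under moderate hypercapnia and 17.4, 28.7 and 31.3 RPKM in room air, with overlapping ranges (0.30 ± 0.14, 95% confidence interval 0.00 to 0.59, adjusted p = 0.37; 13.4% of genes had an unadjusted p under 0.05). The 17.4 RPKM library was NTS room air replicate 1, without which the difference was 0.20 (adjusted p = 0.68). All 8 myelin markers were below 0 in that comparison (median -0.88; 3239 and 6218 RPKM in moderate hypercapnia and room air), and all 5 motor neuron markers tested were above it (median 1.09; 561 and 268 RPKM). With the myelin marker level as a covariate the GLRB difference was 0.04 ± 0.13 (adjusted p = 1). SLC6A5 was the member below 0 (-0.17 ± 0.30, adjusted p = 0.80), and its confidence interval ran from -0.81 to 0.46.

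Mild hypercapnia against room air in the NTS split the members 4 to 4 (median 0.01, -0.01 over all genes), with no unadjusted p under 0.05 against 4.66% of genes. SLC6A5 and GLRA3 had the largest differences (-0.33 ± 0.30 and 0.27 ± 0.25). Moderate against mild hypercapnia placed 7 of 8 above 0 (median 0.16, 0.00 over all genes), the largest being GLRA1 at 0.32 ± 0.27, and again none had an unadjusted p under 0.05 against 4.02% of genes.

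In the RTN no member had an unadjusted p under 0.05 in any comparison, against 6.59% of genes in mild hypercapnia against room air, 7.38% in moderate hypercapnia against room air and 10.6% in moderate against mild hypercapnia. The largest difference was that of GAD2 in mild hypercapnia against room air (-0.44 ± 0.29, adjusted p = 0.80), where it had 4.5, 7.48 and 12.5 RPKM under mild hypercapnia and 7.96, 10.8 and 13.5 RPKM in room air. The number of members above 0 was 2, 3 and 5 of 8 in the 3 comparisons, and the medians were -0.17, -0.01 and 0.09. Exposed RTN libraries were spread widely: SLC6A5 ranged from 5.17 to 23.5 RPKM under moderate and from 4.79 to 17.3 under mild hypercapnia, against 8.36 to 17.4 in room air. Its 95% confidence intervals ran from -0.66 to 0.78 for moderate and from -0.91 to 0.52 for mild hypercapnia against room air.

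In the mPFC, where 7 members were tested, GLRB had 32.2, 42.7 and 50.3 RPKM under moderate and 42.8, 50.0 and 78.9 RPKM under mild hypercapnia (-0.43 ± 0.15, 95% confidence interval -0.74 to -0.12, adjusted p = 0.95; 4.71% of genes had an unadjusted p under 0.05). The ranges overlapped, and voom gave -0.22 (adjusted p = 1). Of 10 neuron markers 1 was above 0 in that comparison (median -0.27; 3085 RPKM under moderate and 3659 under mild hypercapnia), and with their level as a covariate the GLRB difference was -0.23 ± 0.14 (adjusted p = 1). SLC32A1 in mild hypercapnia against room air (0.49 ± 0.24), GLRA2 in the same comparison (-0.45 ± 0.22) and SLC6A5 in moderate hypercapnia against room air (-0.82 ± 0.44, on 3 to 34 counts per room air library) came next, each with an adjusted p of 1. Without mPFC mild hypercapnia replicate 3, the library at 7.03 RPKM, the SLC32A1 difference was 0.24 ± 0.20. No member had an unadjusted p under 0.05 in mild or in moderate hypercapnia against room air, where 3.45% and 2.1% of genes did. Of the 7 members, 2, 2 and 3 were above 0 in mild against room air, moderate against room air and moderate against mild, with medians of -0.07, -0.07 and -0.06.

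Whether the response to an exposure differed among the 4 regions was tested over all 72 libraries and 16372 genes. No member was called for either exposure (adjusted p of 1 for each, and none with an unadjusted p under 0.05). Of all genes 0% were called, and 2.4% for mild and 3.83% for moderate hypercapnia had an unadjusted p under 0.05. Among the 25 pathway genes, edgeR called 0 in the 12 comparisons. In mild against room air, moderate against room air and moderate against mild hypercapnia, those at an unadjusted p under 0.05 numbered 2, 3 and 6 in RTN, 0, 3 and 1 in NTS, 3, 3 and 6 in VRC and 0, 0 and 2 in mPFC. The shares of all genes were 6.59%, 7.38% and 10.6% in RTN, 4.66%, 13.4% and 4.02% in NTS, 6.23%, 5.67% and 15.5% in VRC and 3.45%, 2.1% and 4.71% in mPFC. The 6 in VRC moderate against mild hypercapnia were all above 0, led by the chloride extruder SLC12A5 (0.78 ± 0.20, adjusted p = 0.12) and ABAT (0.71 ± 0.23, adjusted p = 0.17). The 6 in RTN moderate against mild hypercapnia were also above 0, among them ABAT (0.52 ± 0.21, adjusted p = 0.38). How all genes with such an unadjusted p divided between the directions is not reported here.

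Some members varied between the libraries of 1 group together with other members or with cell markers. For each region, deviations from the group means of log2(CPM + 0.5) were correlated over 18 libraries, with permutation within condition and adjustment over 322 relations between members or with 7 cell marker lists, of which 51 were called. Members and markers of a library share its depth and its cell content. GAD1 and GAD2 deviated together in every region: Pearson's r was 0.94 in RTN (rho 0.94, r without the 2 libraries farthest from the median of GAD1 0.95), 0.79 in NTS (0.81, 0.64), 0.81 in VRC (0.79, 0.68) and 0.85 in mPFC (0.80, 0.72). Their permutation p-values were 1e-05 in RTN, the smallest that the permutations can give, and 0.00032, 0.00069 and 0.00021 in the other regions (adjusted 0.0016, 0.0074, 0.011 and 0.0061; for rho 1e-05, 0.00012, 0.00076 and 0.00044).

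In the RTN the level of SLC6A5 in a library was high or low together with those of GAD1, GAD2 and SLC32A1. SLC6A5 followed GAD1 (r = 0.90, rho = 0.88, permutation p = 3e-05 and 0.00013, adjusted 0.0019 and 0.0070, r without 2 libraries 0.88), GAD2 (r = 0.92, rho = 0.86, permutation p = 1e-05 and 0.00021, adjusted 0.0016 and 0.0085, without 2 libraries 0.88) and SLC32A1 (r = 0.82, rho = 0.82, permutation p = 0.00036 and 0.00038, adjusted 0.0074 and 0.010, without 2 libraries 0.85). The hindbrain inhibitory neuron markers, transcription factors that specify such neurons, followed SLC6A5 too (r = 0.90, rho = 0.92, permutation p = 2e-05 for each, adjusted 0.0019 and 0.0032, without 2 libraries 0.89). The receptor gene GLRB instead followed the motor neuron markers (r = 0.91, rho = 0.89, permutation p = 4e-05 and 3e-05, adjusted 0.0021 and 0.0032, without 2 libraries 0.81). SLC6A5 ran against those markers (r = -0.72, rho = -0.76, permutation p = 0.0056 and 0.0020, adjusted 0.039 and 0.027, without 2 libraries -0.77).

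In the NTS, SLC6A5 and GLRA1 deviated in opposite directions (r = -0.78, rho = -0.80, permutation p = 0.00042 and 0.00028, adjusted 0.0075 and 0.0097, without 2 libraries -0.65). GLRA1 followed the motor neuron markers (r = 0.80, rho = 0.78, permutation p = 0.00040 and 0.00059, adjusted 0.0075 and 0.013, without 2 libraries 0.70), and SLC6A5 ran against them (r = -0.78, rho = -0.73, permutation p = 8e-05 and 0.00068, adjusted 0.0032 and 0.013, without 2 libraries -0.61). SLC6A5 also followed the myelin markers (r = 0.84, rho = 0.81, permutation p = 3e-05 and 0.00016, adjusted 0.0019 and 0.0074, without 2 libraries 0.74). The relation of SLC6A5 with GLRB (r = -0.69, rho = -0.51, permutation p = 0.0042 and 0.031, adjusted 0.032 and 0.14) was -0.38 without 2 libraries and rests on them.

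In the VRC, SLC6A5 followed GAD1 (r = 0.74, rho = 0.68, permutation p = 0.0019 and 0.0056, adjusted 0.022 and 0.050, without 2 libraries 0.63). GLRB followed the glutamatergic markers there (r = 0.74, rho = 0.76, permutation p = 0.0035 and 0.0021, adjusted 0.030 and 0.027, without 2 libraries 0.80). In the mPFC the relation called beside that of GAD1 with GAD2 was between SLC32A1 and the myelin markers (r = -0.70, rho = -0.71, permutation p = 0.0011 and 0.0024, adjusted 0.016 and 0.028, without 2 libraries -0.63). Called relations numbered 24 in RTN, 15 in NTS, 10 in VRC and 2 in mPFC. Between members they were 6 of 28 in RTN, 6 of 28 in NTS, 5 of 28 in VRC and 1 of 21 in mPFC. With marker lists they were 18 of 56, 9 of 56, 5 of 56 and 1 of 49 in that order. How often other genes followed the same lists, or pairs of other genes deviated together, was not tested.

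**Figure D5:**
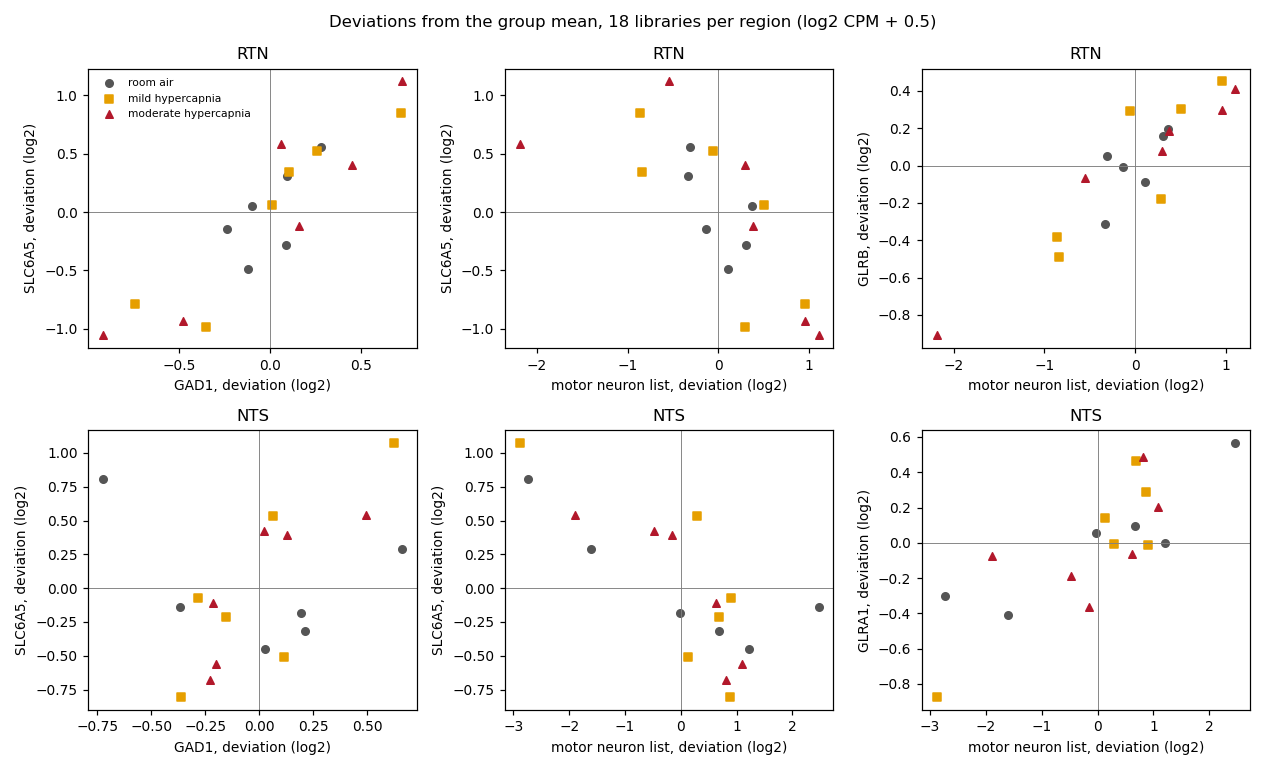
Deviations of 18 libraries from their group means (log2 CPM + 0.5) in the RTN (top) and NTS (bottom), coloured by condition. In the RTN SLC6A5 rises with GAD1 (r = 0.90) and falls with the motor neuron markers (r = -0.72), which GLRB follows (r = 0.91); in the NTS the motor neuron markers run with GLRA1 (r = 0.80) and against SLC6A5 (r = -0.78), and 4 libraries lie below -1 on their axis.

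As a description over the 72 libraries, the levels most like those of SLC6A5 among 10129 genes were those of DLK1 (r = 0.96), MTUS1 (0.96), ESPN (0.95), QDPR (0.95) and HSD17B12 (0.95), and among the members GLRA1 (0.90). For GAD2 they were GAD1 (0.95), NSG2, BLCAP, ELAPOR1 and PLXNC1 (0.93 each). Such values are set by the regions, which these libraries share. After subtraction of the 12 group means, the genes most like SLC6A5 were SLC30A3 (0.73), GDE1 (0.65), LAMP5 (0.65), NRSN2 (0.62) and DOC2A (0.62), with GAD1 at 0.62. The genes most like GAD2 were then GAD1 (0.85), KCNA4 (0.77), HPCAL4 (0.75), PTPN5 (0.74) and SCN3B (0.74).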

How the data were processed

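Total RNA was isolated on columns and made into libraries with a low-input SMARTer kit, per the labels' protocols. The authors deposited 1 table with a raw read count and an RPKM value per gene and library. Per the submitters' processing notes the tools were FastQC, Trimmomatic, STAR, featureCounts and edgeR; no source used here gives their versions, the build or the strand setting. The deposited RPKM column divides each count by gene length and by a library size 1.0046 to 1.007 times the column's sum. The deposited length column, in bases, was used to check this. For 89.7% of genes the span from deposited start to end was shorter than that length. Levels compared between genes thus rest on a length that was not verified. Levels below are deposited RPKM, and fold changes come from counts.

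Counts were filtered (filterByExpr, minimum count 10), scaled by TMM and tested with edgeR 4.0.16 in R 4.3.3, with Benjamini-Hochberg adjustment over every gene tested and a threshold of 0.05. Each region's 18 libraries shared a fit, as did the 24 room air libraries and, for interactions, all 72. Alternatives were RLE factors, no filter, DESeq2 1.42.0, limma 3.58.1 (voom with quality weights), a replicate block, the 2 groups alone, marker levels as covariates, exposed libraries in place of room air, and each library left out. On simulated data for moderate hypercapnia against room air, 2-fold changes were recovered in 70.1% of cases in RTN, 71.6% in NTS, 85.1% in VRC and 71.6% in mPFC, and 1.5-fold changes in 41.8%, 31.3%, 23.9% and 32.8%.

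In room air, same-numbered libraries deviated together (r over 0.1 in 6 of 6 numbers, 11984 genes) for VRC with mPFC, RTN with NTS and RTN with VRC. The numbers were taken as pairs there, from the data and not from the labels, and the block changed no member's call in these. If these pairings hold, the same numbers also pair in the remaining region pairs, where fewer numbers passed 0.1. The pairing is therefore not settled, and the main fits did not use it. All members with a row are named; of the pathway genes, up to 4 called per comparison with the largest fold changes, and further ones (GPHN, and SLC12A5 and ABAT in the condition comparisons) after their values were seen. Some results are not reported here. Likeness names the 5 highest r among genes with a symbol and a mean of at least 5 CPM. The members and lists were chosen with earlier results of these data known. Intervals cover counting error only where they are called counting intervals. In a RefSeq gene table (ARS1.2) no protein-coding gene overlapped a member.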

Additional observations from a re-analysis of the deposited data

Results flagged for a closer look

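In the 96 combinations of member and group, the highest and lowest library were compared with the rest by the gap to their neighbour over the group's range (Dixon's 95% critical value for 6 libraries). The comparison could not be made in 1 of them, GLRA1 in mPFC mild hypercapnia, where all libraries held 0 counts. Chance flags about 1 in 20 groups, and 3 were flagged here, so the flags are listed as values. SLC32A1 in mPFC mild hypercapnia replicate 3 was at 7.03 RPKM, far above the other 5 libraries (2.71 to 3.66 RPKM). SLC32A1 in VRC mild hypercapnia replicate 1 was at 6.87 RPKM, above the others at 3.80 to 4.85 RPKM. GLRA1 in mPFC room air replicate 2 was at 0.0232 RPKM, which is 1 count, where the other 5 libraries held 0. Any count there makes the gap equal to the range, so this flag carries no information.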

How the results depend on the processing

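Over the alternatives to the analysis 359 values kept their direction and their side of the threshold, 18 kept the direction and lost the call, 7 gained it and 8 turned sign; with a library left out the numbers were 1235, 26, 8 and 9. The number of members called in the 12 condition comparisons and the 2 interaction tests was 0 under every alternative (lowest adjusted p 0.084), and 0 to 1 in VRC moderate against mild hypercapnia with a library left out. Between regions it ran, over alternatives, from 6 to 7 in RTN, 4 to 7 in NTS and 6 to 8 in VRC (each against mPFC), was 5 in NTS against VRC, and was 4 to 6 in RTN against NTS. In RTN against VRC, where the main analysis called 3, it ran from 0 to 4, with 2 for the mild and 0 for the moderate hypercapnia libraries and 4 for voom; the cause was not tested. Small differences that were not called turned sign in 7 cases: GAD2 in NTS against mPFC (-0.01 with the replicate block; -0.06 to 0.18 with a library left out), GLRB in RTN against NTS (-0.01 with voom, -0.25 with mild and -0.23 with moderate libraries; -0.03 to 0.14 with a library left out), SLC32A1 in RTN against NTS (0.05 with mild libraries; -0.12 to 0.09 with a library left out), GLRA3 in RTN against VRC (0.02 with mild libraries) and GLRA2 in RTN against VRC (-0.14 with moderate libraries). The called GAD2 difference in RTN against VRC was -0.16 with the moderate libraries.

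The replicate block left 0 members called in the 12 condition comparisons, where the numbers share little (r over 0.1 in 28 of 72 pairs, and 0 to 6 of 12 libraries best matched by their own number). In the region pairs not taken as paired it called 7 in NTS against mPFC (8 of 12 libraries best matched by their own number; GAD1 -0.38, adjusted p = 0.041), 7 in RTN against mPFC (10 of 12) and 5 in NTS against VRC (10 of 12). Where the numbers were taken as pairs it called 8 in VRC against mPFC, 4 in RTN against NTS and 3 in RTN against VRC.

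Depth limits GLRA1 (16 to 127 counts per medullary library), GLRA3 and the cortical SLC6A5. Motor neuron and myelin markers varied between libraries of 1 group, and their part in the condition comparisons was not tested beyond the covariate fits.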
